A study of Homo sapiens with 18 samples.

Results

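MAEL, HORMAD1, GCNA, DAZL, TEX14 and DPPA3 are germ cell genes, normally transcribed in testis, ovary or the early embryo. They were chosen by symbol, with their measured levels over all treatment groups of this study already in view, and they are 6 of the 14884 genes that the arrays could name. Each was read by 1 probe set. The series profiled RNA of U937, an established human line of promonocytic cells from a histiocytic lymphoma, with 18 Affymetrix Human Gene 2.0 ST arrays, 3 in each of 6 groups. The groups were untreated control cells, decitabine (5-aza-2'-deoxycytidine, coded D50), panobinostat (P8), valproic acid (V1), decitabine plus panobinostat (D50P8) and decitabine plus valproic acid (D50V1). The numbers in these codes carry no unit in the labels. Decitabine was given as 3 pulses of 24 h, and an inhibitor was present for 24 h, alongside the last pulse in the combinations. All groups grew in the same serum-containing medium. Nothing in the labels says that replicates were grown separately, so the spread given here may be technical. All cells are of 1 line.

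In somatic cells many germ cell genes are kept silent by methylation of CpG dinucleotides in their promoters. Repressor complexes that include E2F6, MGA with MAX, PCGF6 and L3MBTL2 also act on a number of them. Decitabine is built into replicating DNA and binds DNA methyltransferases covalently, so that methylation is lost as cells divide. Panobinostat and valproic acid both inhibit histone deacetylases. The arrays measured RNA and no DNA methylation, so the name methylation-silenced was not tested on these data, and the 6 are called germ cell genes from here on.

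Promoter sequence in the RefSeq table (GRCh38.p14) was matched by symbol for 4 of the 6 genes, MAEL, DAZL, GCNA and DPPA3. The 250 bases before a transcription start are shown for these because promoter methylation would lie on their CpG sites. Letters run 5' to 3' on the gene's strand, in lower case with every CG in capitals. The stretch for MAEL, chr1:166989030-166989279 on the plus strand, precedes the second of its starts. The stretch for DAZL, chr3:16605424-16605673, lies on the minus strand, before the outer of its starts. The stretches for GCNA, chrX:71578187-71578436, and DPPA3, chr12:7711183-7711432, lie on the plus strand.
MAEL: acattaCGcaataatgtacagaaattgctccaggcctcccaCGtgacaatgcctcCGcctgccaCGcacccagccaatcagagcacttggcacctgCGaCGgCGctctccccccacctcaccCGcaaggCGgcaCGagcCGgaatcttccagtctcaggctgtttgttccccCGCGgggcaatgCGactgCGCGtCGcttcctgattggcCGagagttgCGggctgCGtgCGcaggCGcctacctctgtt
DAZL: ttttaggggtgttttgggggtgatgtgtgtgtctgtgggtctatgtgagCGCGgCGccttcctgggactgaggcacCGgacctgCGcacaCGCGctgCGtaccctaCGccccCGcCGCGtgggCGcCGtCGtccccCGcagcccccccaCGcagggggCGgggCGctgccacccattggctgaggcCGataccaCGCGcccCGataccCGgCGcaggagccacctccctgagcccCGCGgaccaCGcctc
GCNA: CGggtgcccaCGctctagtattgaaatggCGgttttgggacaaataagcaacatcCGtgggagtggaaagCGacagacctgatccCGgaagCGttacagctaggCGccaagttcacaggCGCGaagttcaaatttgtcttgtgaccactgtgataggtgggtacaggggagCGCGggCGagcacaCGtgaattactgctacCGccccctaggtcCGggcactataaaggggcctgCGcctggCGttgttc
DPPA3: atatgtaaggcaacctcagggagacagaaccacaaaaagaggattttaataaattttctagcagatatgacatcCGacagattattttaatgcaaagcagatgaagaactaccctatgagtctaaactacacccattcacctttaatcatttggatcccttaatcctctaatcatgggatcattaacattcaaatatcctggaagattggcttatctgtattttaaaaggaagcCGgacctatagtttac
Among these stretches MAEL had 22 CG sites, DAZL 28, GCNA 18 and DPPA3 only 2.

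With the 50 bases after the start added, the windows held 27 CpGs for MAEL, 33 for DAZL, 21 for GCNA and 6 for DPPA3. The median over the 35116 RefSeq windows of 300 bases was 14. The second window of MAEL, at its outer start (chr1:166975332-166975631), held 60, and the second window of DAZL (chr3:16604741-16605040) held 29. DPPA3 thus lay below the median of all promoters, with a GC content of 38.3% against a median of 58.7%, while both windows of MAEL and DAZL and the window of GCNA lay above the median CpG count. The GC content of the GCNA window was 57.0%. The 6 letters CACGTG, the core E-box that MYC, MAX and MGA proteins can bind, were searched on both strands. They were found in the inner window of MAEL 211 bases before the start, in the inner window of DAZL 154 bases before it, and in GCNA 67 bases before it. DPPA3 had none. Of all windows 7.26% held these letters, and 8.77% of genes had at least 1 such window. Among windows with at least 20 CpGs the share was 10.2%. The letters TCCCGC (E2F-like), TATAAA and CCAAT were searched as well. TCCCGC lay in both windows of MAEL and the inner window of DAZL. It lay in 26.9% of all windows and 50.4% of those with at least 20 CpGs. TATAAA lay in GCNA only, against 11.5% of all windows. CCAAT lay in the inner window of MAEL, the outer window of DAZL and DPPA3, against 34.6%. A match of letters is a description of the window and was not tied to binding here.

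**Figure D1:**
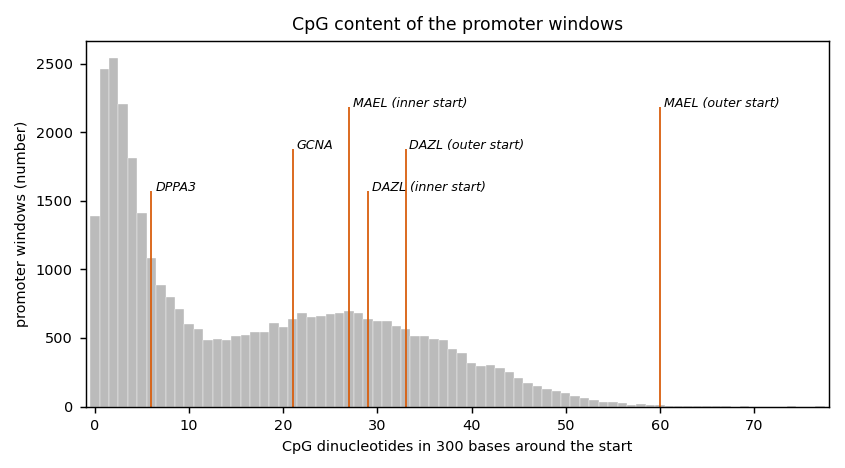
Number of RefSeq promoter windows of 300 bases (vertical axis) by the number of CpG dinucleotides in the window (horizontal axis), with the windows of 4 germ cell genes marked; inner and outer start name the 2 annotated starts of MAEL and DAZL. DPPA3, with 6 CpGs, lies below the median of 14, and the other 5 windows, with 21 to 60, lie above it.

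All 9 arrays of cells given decitabine read higher than all 9 arrays without it for MAEL, HORMAD1, GCNA, DAZL and DPPA3. The ranges for TEX14 overlapped, since its lowest array with decitabine (3.91) lay below its highest without (4.19, under valproic acid). Of all 14884 genes, 206 (1.38%) had such a separation upward. Because the 6 genes were picked on these levels, that share is given for scale only, and no test is reported for them. All levels are deposited log2 signals of the probe set, and all differences are differences of group means on that log2 scale, with the standard error from the fit. A level of 1 gene is not set against that of another, since probe sets differ in brightness. The median of all values on the arrays was 3.84, and 5 of the 6 genes had control means between 3.40 and 4.05, with GCNA at 4.57. Signals near that median are compressed, so differences and folds from control may be understated. Because the 6 genes were picked on these levels, they may also be overstated, and they are not lower bounds. Neither effect was measured. Differences of at most 0.18 in size changed sign for some genes when an array was left out or arrays were centred. In a culture, more cells transcribing a gene and more RNA per cell cannot be told apart on these arrays.

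**Figure D2:**
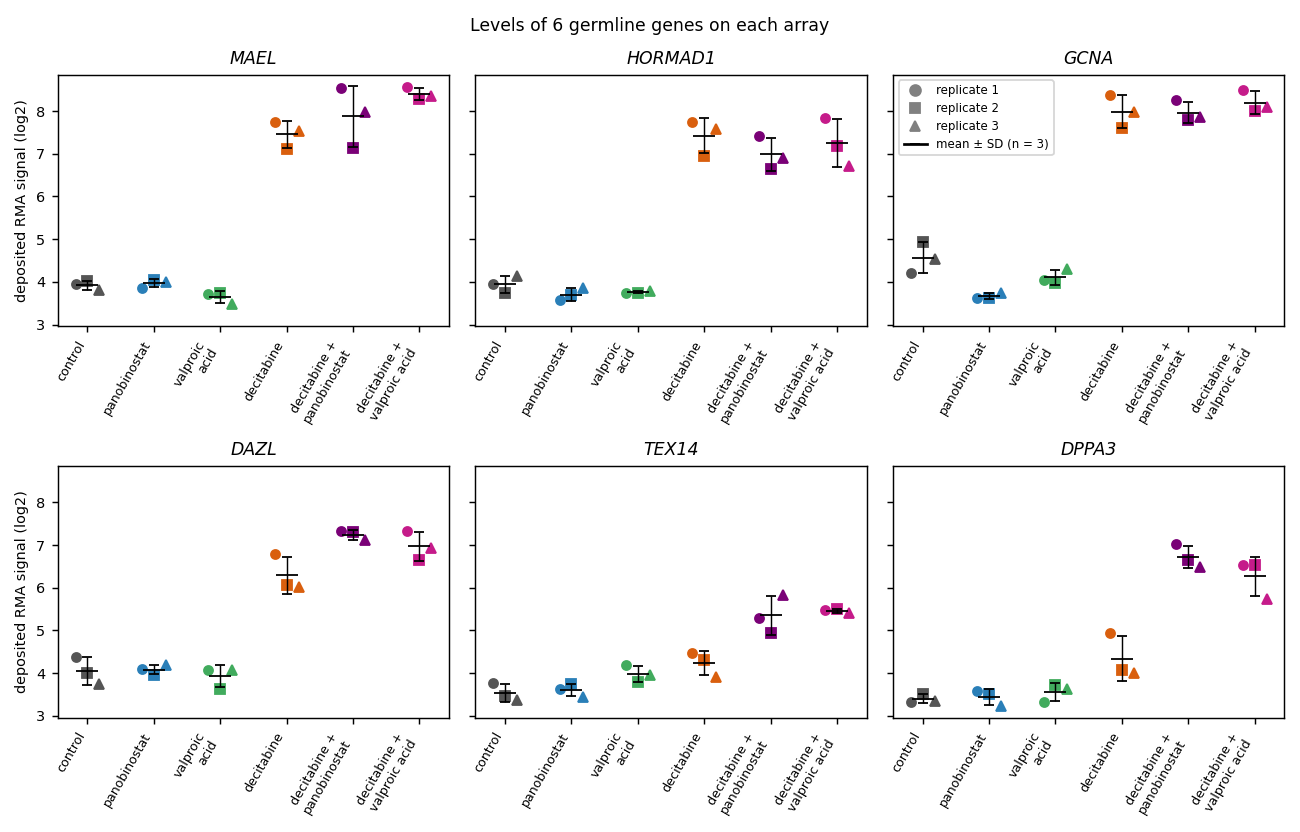
Deposited log2 signal (vertical axis) of each of the 6 germ cell genes on each of the 18 arrays, by treatment group; symbols are arrays, and bars are the group mean and SD. The 9 arrays with decitabine form a separate upper band for MAEL, HORMAD1, GCNA and DAZL, while TEX14 and DPPA3 are highest in the 2 combination groups.

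MAEL encodes a protein of the germ cell nuage that takes part in the piRNA pathway, the small-RNA defence against transposons. Its log2 level was 3.94, 4.02 and 3.81 in the control arrays and 7.74, 7.12 and 7.53 with decitabine. It was 8.54, 7.13 and 7.97 with decitabine plus panobinostat, and 8.57, 8.30 and 8.35 with decitabine plus valproic acid. All 9 arrays with decitabine were far above the rest, and those of the valproic acid combination also lay wholly above those of decitabine alone. Panobinostat alone gave 3.86, 4.04 and 3.99, overlapping the control arrays, and valproic acid alone gave 3.72, 3.73 and 3.47, all below them, as 12% of all genes were. The decitabine difference from control was 3.54 (SE 0.25), a signal ratio of 11.6, and the valproic acid combination reached 4.48 (SE 0.25). Adding valproic acid to decitabine thus corresponded to a further 0.94. Adding panobinostat to decitabine corresponded to 0.42, with overlapping arrays, and to 0.09 without replicate 1 and 0.79 without replicate 2 of that combination.

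HORMAD1 encodes a HORMA-domain protein of the unsynapsed meiotic chromosome axis, where it promotes recombination and homologue pairing. Its control arrays read 3.95, 3.74 and 4.14, and the decitabine arrays 7.74, 6.96 and 7.58. With decitabine plus panobinostat they read 7.42, 6.65 and 6.89, and with decitabine plus valproic acid 7.83, 7.19 and 6.72. The 3 decitabine groups overlapped one another, and decitabine alone had the highest mean. The difference from control was 3.48 (SE 0.25) with decitabine, 3.04 with the panobinostat combination and 3.30 with the valproic acid combination. Neither inhibitor alone gave a mean above control, the differences being -0.24 for panobinostat and -0.19 for valproic acid. HORMAD1 was the gene of the 6 whose mean was lower in both combinations than with decitabine alone, with differences of -0.44 and -0.18 (SE 0.25). The second turned to 0.09 without replicate 3 of the valproic acid combination and was -0.47 without its replicate 1. The first ran from -0.67 without decitabine replicate 2 to -0.27 without replicate 2 of the panobinostat combination.

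GCNA encodes an acidic nuclear protein of germ cells that limits damage from proteins crosslinked to DNA. Its control arrays read 4.21, 4.94 and 4.54, and the decitabine arrays 8.38, 7.60 and 7.99. With decitabine plus panobinostat they read 8.25, 7.78 and 7.86, and with decitabine plus valproic acid 8.50, 8.003 and 8.09. As with HORMAD1, the 3 decitabine groups overlapped, at differences from control of 3.42, 3.40 and 3.63 (SE 0.21). Panobinostat alone gave 3.61, 3.63 and 3.75, all below every control array, a difference of -0.90 (SE 0.21). Valproic acid alone gave 4.05, 3.96 and 4.30, with a mean difference of -0.46 and 1 array inside the control range. Of all genes, 12.9% had every panobinostat array below every control array.

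DAZL encodes an RNA-binding protein that sustains translation of germ cell transcripts. Its control arrays read 4.39, 3.998 and 3.75, and the decitabine arrays 6.80, 6.06 and 6.03. With decitabine plus panobinostat they read 7.33, 7.30 and 7.11, and with decitabine plus valproic acid 7.33, 6.64 and 6.93. The panobinostat combination lay wholly above decitabine alone, by 0.95 (SE 0.22), while the valproic acid combination, higher by 0.67, overlapped it. The decitabine difference from control was 2.25 (SE 0.22), or 4.75-fold, and the panobinostat combination differed from control by 3.20. The inhibitors alone stayed within 0.12 of the control mean. DAZL is closely similar to the DAZ genes, and whether its probes tell these copies apart was not tested.

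TEX14 encodes a protein that keeps the intercellular bridges between dividing germ cells open. Its control arrays read 3.76, 3.46 and 3.37 and the decitabine arrays 4.48, 4.32 and 3.91, a difference of 0.70 (SE 0.20), or 1.63-fold. With decitabine plus panobinostat the arrays read 5.30, 4.94 and 5.84, and with decitabine plus valproic acid 5.48, 5.49 and 5.40. Both combinations lay wholly above decitabine alone, by 1.12 and 1.22 (SE 0.20). Valproic acid alone gave 4.19, 3.80 and 3.95, all above the control arrays, a difference of 0.45, which became 0.37 when each array was centred on its median. It was the only member with all valproic acid arrays above all control arrays, a pattern that 13.1% of all genes had. Panobinostat alone gave 3.62, 3.74 and 3.45, inside the control range.

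DPPA3, also called STELLA, encodes a maternal and primordial germ cell factor that shields the early embryo's genome from changes in methylation. Its control arrays read 3.33, 3.52 and 3.35 and the decitabine arrays 4.95, 4.06 and 4.01. With decitabine plus panobinostat they read 7.02, 6.65 and 6.49, and with decitabine plus valproic acid 6.54, 6.53 and 5.74. The combinations lay wholly above decitabine alone, and decitabine alone wholly above control, as 11.5% of all genes were. The difference from control was 0.94 (SE 0.24), or 1.91-fold, with decitabine, 3.32 with the panobinostat combination and 2.87 with the valproic acid combination. Panobinostat and valproic acid alone differed from control by 0.04 and 0.16, with arrays between 3.23 and 3.71. Decitabine replicate 1 weighed heavily here, and without it the decitabine difference was 0.63. DPPA3 has processed pseudogenes in the genome, and whether its probes tell these apart was not tested.

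**Figure D3:**
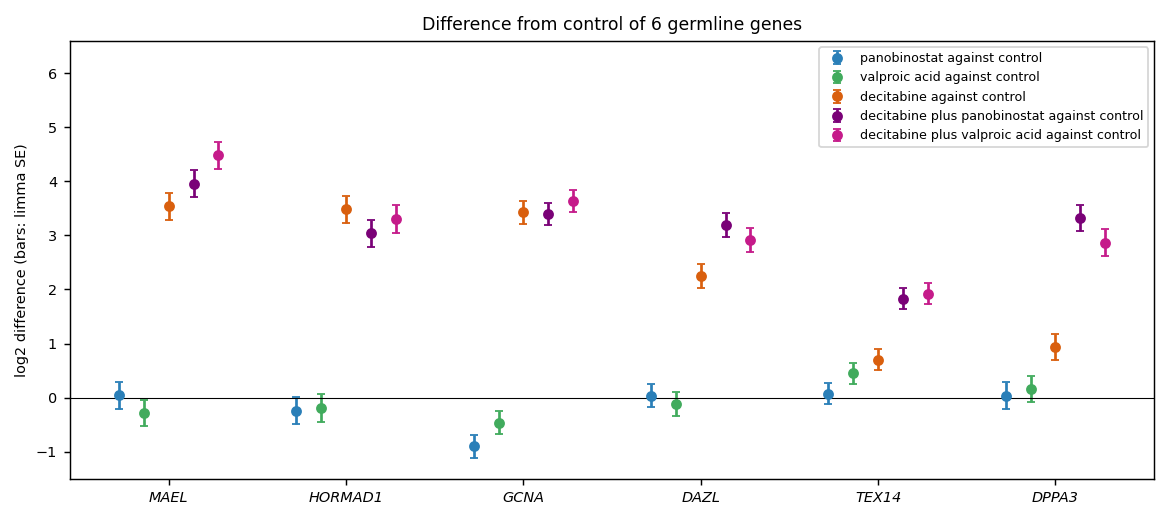
Difference of group means from control on the log2 scale, with standard error bars from the fit, for the 6 germ cell genes under each of the 5 treatments (3 arrays per group). Decitabine alone gives 3.42 to 3.54 for MAEL, HORMAD1 and GCNA but 0.70 and 0.94 for TEX14 and DPPA3, and the inhibitors alone lie between -0.90 and 0.45.

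The 6 genes therefore fell along a range of how their combination level stood to decitabine alone. The comparisons with control share the same 3 control arrays, and those with decitabine alone share its 3 arrays, so the differences are set side by side and not correlated. Adding panobinostat corresponded to -0.44 for HORMAD1, -0.03 for GCNA, 0.42 for MAEL, 0.95 for DAZL, 1.12 for TEX14 and 2.38 for DPPA3. The arrays of DAZL, TEX14 and DPPA3 did not overlap those of decitabine alone, and 14.2% of all genes had such an upward separation. Adding valproic acid corresponded to -0.18 for HORMAD1, 0.21 for GCNA, 0.67 for DAZL, 0.94 for MAEL, 1.22 for TEX14 and 1.93 for DPPA3. Here MAEL, TEX14 and DPPA3 were the genes without overlap, against 11.2% of all genes. In both rankings HORMAD1 was lowest, GCNA next, and DPPA3 highest. The GCNA values had no settled size: leaving out decitabine replicate 2 or 1 gave -0.22 or 0.17 for panobinostat and 0.01 or 0.40 for valproic acid. Seen from the inhibitor's side, adding decitabine to panobinostat corresponded to 1.76 for TEX14 and to between 3.16 and 4.30 for the other 5. Adding decitabine to valproic acid corresponded to 1.48 for TEX14 and to between 2.71 and 4.76 for the other 5.

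The interaction is the combination's difference from control minus the sum of those of its agents alone, on the log2 scale, so that 0 means that the folds multiply. For DPPA3 the agents alone summed to 0.97 with panobinostat and the combination gave 3.32, an interaction of 2.35 (SE 0.35). Its mean was 3.40 in control, 3.44 with panobinostat and 3.56 with valproic acid, all below the array median, where signals are compressed. The sum for the agents alone and the combination's difference from control may thus both be understated. How far this moves the interaction was not tested. With valproic acid the DPPA3 interaction was 1.77. HORMAD1 stood at the other end, with -0.20 for panobinostat (SE 0.36) and 0.02 for valproic acid. With 1 array left out these ran from -0.43 to -0.03 and from -0.28 to 0.28. For panobinostat MAEL gave 0.38, GCNA 0.88, DAZL 0.91 and TEX14 1.05. The MAEL value was 0.05 without replicate 1 and 0.75 without replicate 2 of the combination. For valproic acid GCNA gave 0.67, TEX14 0.77, DAZL 0.79 and MAEL 1.22. The GCNA value for panobinostat came with a panobinostat level below control and a combination level close to that of decitabine alone.

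**Figure D4:**
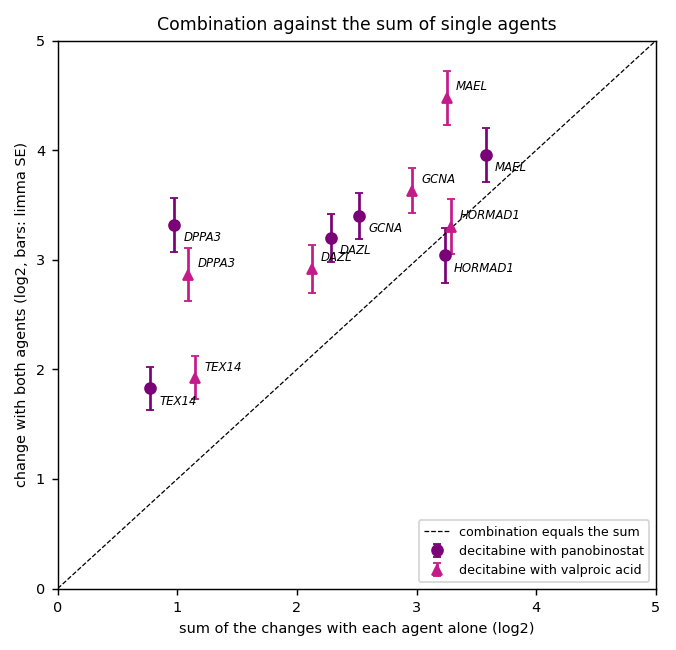
Difference from control in each combination (vertical axis) against the sum of the differences of its 2 agents alone (horizontal axis), both on the log2 scale, for the 6 germ cell genes. Points on the diagonal have an interaction of 0; HORMAD1 lies near it, and DPPA3 lies farthest above it, by 2.35 with panobinostat and 1.77 with valproic acid.

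The arrays of a group were also compared. Replicate 1 was the highest of its group for 6 of 6 genes with decitabine, for 5 of 6 with decitabine plus panobinostat and for 5 of 6 with decitabine plus valproic acid. Its median deviation from the group mean was 0.35, 0.29 and 0.28 on the log2 scale, where the median over all genes lay within 0.01 of 0. Without decitabine replicate 1 the decitabine differences were 3.40 for MAEL, 3.32 for HORMAD1, 3.23 for GCNA, 1.997 for DAZL and 0.58 for TEX14. The labels give no culture, batch or date to which this could be tied. In the 3 groups without decitabine replicate 1 was highest for 1 or 2 of the 6.

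The labelled cell type was checked against markers. In control cells 8 of 10 measured myeloid markers had a mean log2 level above 6, among them MPO at 12.28 and CD4 at 9.74. Of 7 measured markers of other cell types only KRT18 (6.69) did, and of 8 measured testis somatic markers only STAR (7.34). The epithelial EPCAM (3.72), the hepatic ALB (3.37) and the Sertoli cell gene AMH (4.04) lay near the median of all values in control. The log2 of the summed signal of the testis somatic markers ran from 8.004 to 8.36 in control, 8.28 to 8.51 with decitabine, 7.37 to 7.59 with the panobinostat combination and 7.65 to 8.21 with the valproic acid combination. For markers of other cell types it ran from 7.38 to 7.53, 7.53 to 7.77, 7.61 to 7.92 and 7.49 to 7.86 in the same order, and the endothelial and leukocyte gene PECAM1 went from 3.76 in control to 4.75, 5.47 and 5.28. Several myeloid markers also moved with treatment. With decitabine 4 of 10 were called higher by limma, among them PRTN3 (4.58 to 7.62) and CD68 (7.53 to 9.09). Of all genes 2.57% were called higher with decitabine. With the panobinostat combination 3 were higher and 3 lower, CSF3R going from 7.31 to 5.45, and with the valproic acid combination 4 were higher and 2 lower. Of all genes 11.2% were higher and 12% lower with the panobinostat combination, and 8.9% and 8.06% with the valproic acid combination. Of the 7 markers of other cell types, 1 was higher with decitabine, 3 with the panobinostat combination, where EPCAM reached 4.45, and 2 with the valproic acid combination. The shares of all genes called higher are those given for the myeloid markers. Of the 8 testis somatic markers 0 were called by limma with decitabine, with 1 at an unadjusted p under 0.05. With the panobinostat combination WT1 was higher by 0.62 (limma adjusted p = 0.023). STAR, the brightest of them in control, was lower by 1.61 there (adjusted p = 0.000537). STAR was also lower with panobinostat alone, at -1.78 (limma adjusted p = 0.000957), and with valproic acid alone, at -1.73 (adjusted p = 0.00164). With the valproic acid combination WT1 was higher by 0.71 (adjusted p = 0.0146). After centring 0 were higher and 1 lower with the panobinostat combination, and 1 and 0 with the valproic acid combination. The part of any of these markers in the levels of the germ cell genes was not tested. Arrays of 1 group correlated at 0.985 to 0.992 over all genes and arrays of different groups at 0.961 to 0.990.

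Other germ cell genes were then compared between the groups. Of 126 genes in lists of the piRNA pathway, of meiotic chromosomes and recombination, and of germ cell RNA regulators and fate, 95 were measured. A gene was called when its limma p, adjusted by Benjamini-Hochberg over all 14884 genes, was under 0.05. With decitabine 7 of the 95 were higher and 2 lower, or 7.37% higher against 2.57% of all genes. Of all genes 1.39% were called lower and 3.96% in either direction. The panobinostat combination had 12 higher (12.6% against 11.2% of all genes) and 3 lower (12% of all genes), and the valproic acid combination 11 higher (11.6% against 8.9%) and 2 lower (8.06% of all genes). In either direction 23.2% and 17.0% of all genes were called with these combinations. The median difference of the 95 was 0.05 with decitabine, 0.02 with the panobinostat combination and 0.05 with the valproic acid combination, where the medians of all genes were -0.01, -0.02 and -0.02. Most measured germ cell genes, 86 of 95 with decitabine, were not called. Panobinostat alone had 4 higher and 2 lower among the 95, with 7.39% of all genes called in either direction, and valproic acid alone 3 higher and 1 lower, with 7.47% of all genes called.

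These splits moved when each array was centred on the median of its named genes. Centring took 0.07 off the decitabine differences, 0.17 and 0.16 off those of the combinations and 0.06 and 0.07 off those of panobinostat and valproic acid alone. The counts were then 6 higher and 2 lower with decitabine, where 2.09% of all genes were higher and 2.39% lower after the same centring. They were 9 and 13 with the panobinostat combination (7.9% and 22.3% of all genes) and 10 and 7 with the valproic acid combination (6.25% and 17.8%). With panobinostat alone they were 2 and 7 (3.41% and 5.06%), and with valproic acid alone 3 and 2 (3.66% and 4.18%). For MAEL, HORMAD1, GCNA, DAZL, TEX14 and DPPA3 the same centring moved no difference by more than 0.17.

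In the piRNA list, 21 of 28 genes were measured, and 3 rose with decitabine and 5 with each combination, with none lower. Of all genes 2.57% were higher with decitabine, and 11.2% and 8.9% with the combinations. After centring 4 were higher and 2 lower with the panobinostat combination, and 4 and 1 with the valproic acid combination. Of all genes 7.9% were then higher and 22.3% lower with the panobinostat combination, and 6.25% and 17.8% with the valproic acid combination. PNLDC1, the exonuclease that trims piRNA ends, read 3.99, 3.93 and 4.12 in control and 6.91, 6.26 and 6.23 with decitabine. That is a rise of 2.45 (limma adjusted p = 8.59e-07), with no overlap, and its combination differences were 2.02 and 2.13. PIWIL2, an Argonaute protein that binds piRNAs, rose by 0.80 with decitabine (adjusted p = 0.03), 0.90 with the panobinostat combination and 0.94 with the valproic acid combination. TDRD9, a helicase of the same pathway, rose by 0.60 with decitabine (adjusted p = 0.0307). The TDRD9 mean went from 3.13 in control to 3.73 with decitabine, still below the array median of 3.84. The PIWIL2 mean went from 3.41 to 4.21. TDRKH, a Tudor-domain scaffold of piRNA trimming, rose with each inhibitor alone, by 0.86 with panobinostat and 1.15 with valproic acid, and by 1.25 and 1.16 with the combinations, while its decitabine difference was 0.50 (adjusted p = 0.339). MYBL1, a transcription factor for piRNA precursors, rose by 0.60 with valproic acid and 0.53 with its combination. RNF17, a Tudor-domain protein, rose by 0.41 with the panobinostat combination, from a mean of 3.36 to 3.78, below the array median. On centring RNF17 lost that call (adjusted p = 0.143), MYBL1 the call in the combination (adjusted p = 0.0749) and TDRKH the call with panobinostat (adjusted p = 0.055), which it also lost with a replicate block (adjusted p = 0.0708). The list's median difference with decitabine was 0.08, against -0.01 for all genes.

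In the meiotic list, 35 of 48 genes were measured. With decitabine 3 rose and 1 fell, with the panobinostat combination 7 rose and 2 fell, and with the valproic acid combination 6 rose and 1 fell. The shares of all genes higher and lower, in the same order, were 2.57% and 1.39%, 11.2% and 12%, and 8.9% and 8.06%. After centring the list counts were 2 and 1, 5 and 4, and 6 and 2. The shares of all genes were then 2.09% and 2.39%, 7.9% and 22.3%, and 6.25% and 17.8%. STAG3, the meiotic cohesin subunit, read 3.86, 3.66 and 3.71 in control and 5.87, 4.36 and 5.26 with decitabine, a rise of 1.42 (limma adjusted p = 0.00497), and rose by 1.70 and 1.85 with the combinations. TEX11, a crossover protein, rose by 0.90 with decitabine (adjusted p = 0.0177), 1.40 and 1.57. SYCP3, an axial element protein of the synaptonemal complex, rose by 0.64 with decitabine (adjusted p = 0.0372, and 0.0529 on centring), 0.69 and 0.79. CCNB3, a meiotic cyclin, rose in all 4 groups that held an inhibitor, by 1.09 with panobinostat, 1.08 with valproic acid and 1.74 and 1.32 with the combinations. With decitabine alone its difference was 0.75 (adjusted p = 0.05, not called), with arrays of 6.44, 6.47 and 6.37 all above the controls. REC8, the meiotic kleisin of cohesin, rose by 0.99 with the panobinostat combination, or 0.66 without its replicate 1, and TEX12, a central element protein of the synaptonemal complex, by 0.83 with the valproic acid combination. TOP6BL, a partner of SPO11 in making meiotic breaks, fell by 1.45 with decitabine (adjusted p = 0.0458). Its decitabine arrays read 6.54, 4.64 and 6.55, and without replicate 2 the difference was -0.81. TRIP13, which remodels HORMA-domain proteins such as HORMAD1 and also acts in the mitotic checkpoint, fell by 1.09 with the panobinostat combination and by 0.48 with the valproic acid combination, or 0.30 without replicate 3 of that combination.

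In the list of germ cell RNA regulators and fate genes, 39 of 50 were measured, and 2 were called with decitabine and 1 with each combination. Of all genes 3.96% were called with decitabine, and 23.2% and 17.0% with the combinations. After centring 7 were lower with the panobinostat combination, where 22.3% of all genes were lower. With the valproic acid combination 4 were lower after centring, where 17.8% of all genes were. With decitabine RBM46, an RNA-binding protein of germ cells, rose by 0.54 (limma adjusted p = 0.02) and ZP3, a protein of the egg coat, fell by 1.27 (adjusted p = 0.000674). The RBM46 mean went from 3.55 to 4.09, near the array median of 3.84. ZP3 read 7.05, 7.02 and 7.03 in control and 5.61, 5.86 and 5.82 with decitabine, and it fell by 1.36 and 1.25 with the combinations. KIT, the receptor for stem cell factor in germ and blood cells, fell by 1.56 with panobinostat and by 1.26 with valproic acid. SALL4, a zinc finger factor of spermatogonia, rose by 0.45 with panobinostat, from a mean of 3.74 to 4.19. The list's median was -0.04 with decitabine, against -0.01 for all genes. The PNLDC1, STAG3 and ZP3 calls with decitabine held whichever of the 6 arrays was left out, whereas PIWIL2, TDRD9, TEX11, RBM46 and TOP6BL kept theirs in 2 of 6 such fits and SYCP3 in 0 of 6. The number of called genes among the 95 dropped from 9 to 3 without control replicate 1, and to 4 without control replicate 2, control replicate 3 or decitabine replicate 1. With panobinostat it dropped from 6 to 2 without panobinostat replicate 3, and to 3 without panobinostat replicate 2 or any 1 of the control arrays. With valproic acid it dropped from 4 to 1 without control replicate 1, and to 2 without valproic acid replicate 1 or 2. Other named calls that did not hold in every such fit were those of TDRKH with panobinostat (0 of 6) and valproic acid (4 of 6), RNF17 with the panobinostat combination (2 of 6), MYBL1 (4 of 6) and TRIP13 (3 of 6) with the valproic acid combination, SALL4 with panobinostat (3 of 6), KIT with valproic acid (2 of 6) and MYBL1 with valproic acid (3 of 6).

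**Figure D5:**
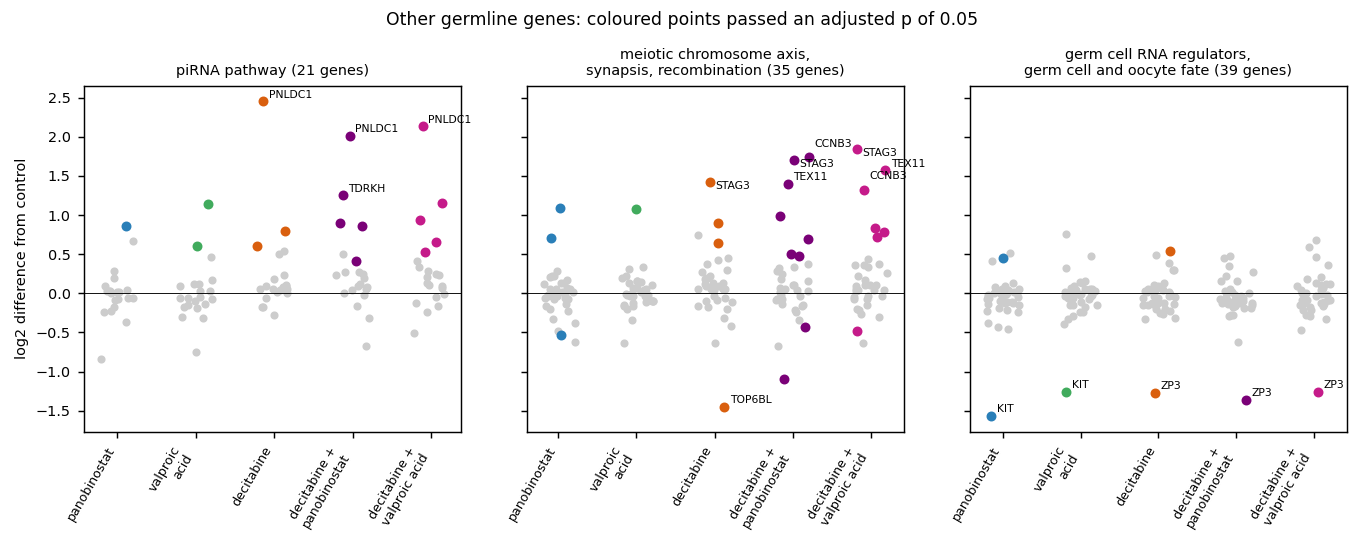
Differences from control on the log2 scale for the 95 measured germ cell genes of the 3 lists under each of the 5 treatments; each point is 1 gene, and coloured points were called by limma (adjusted p under 0.05). Most genes lie near 0; with decitabine PNLDC1 (2.45) and STAG3 (1.42) lie highest and ZP3 (-1.27) and TOP6BL (-1.45, or -0.81 without decitabine replicate 2) lowest.

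The comparisons of a combination with 1 of its agents gave small counts among the 95. Against decitabine alone the panobinostat combination had 4 higher and 4 lower, where 15.6% of all genes were called, and the valproic acid combination 4 higher and 1 lower, where 6.13% were. After centring these were 2 and 8, where 5.76% of all genes were higher and 11.9% lower, and 1 and 3, where 2.69% were higher and 5.15% lower. The 8 for panobinostat became 5 without replicate 1 of its combination. The 5 for valproic acid became 0 without replicate 3 of its combination, 1 without its replicate 2, and 2, 3 and 1 without decitabine replicates 1, 2 and 3. Against panobinostat alone its combination had 9 higher and 3 lower, where 9.55% of all genes were called, and against valproic acid alone its combination had 7 higher and 1 lower, where 4.03% were. The interaction with panobinostat was called for 1 of 95 genes, where 0.625% of all genes were called. The interaction with valproic acid was called for 0 of 95 by limma, with 6 at an unadjusted p under 0.05, where 0.0605% of all genes were called.

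Genes of the complexes that repress germ cell genes, such as E2F6, MGA and PCGF6, were measured for 20 of 25 listed. With decitabine 0 of 20 were called by limma, with 2 at an unadjusted p under 0.05, and their median difference was -0.01. The panobinostat combination had 2 higher and 7 lower, where 11.2% of all genes were higher and 12% lower, with a list median of -0.30 against -0.02 for all genes. Among the lower ones were TFDP1, the dimer partner of E2F proteins, at -1.66 (limma adjusted p = 7.12e-05), PCGF6, a polycomb ring finger protein, at -0.83 (adjusted p = 0.00519), and L3MBTL2, a methyl-lysine reader of the same complex, at -0.76 (adjusted p = 0.00218). The 2 higher ones were RYBP at 0.69 (limma adjusted p = 0.000152) and ATF7IP at 0.51 (adjusted p = 0.0349). On centring RYBP kept its call (adjusted p = 0.00105) and ATF7IP lost it (adjusted p = 0.125). RYBP was also higher with panobinostat alone (0.46), valproic acid alone (0.57) and the valproic acid combination (0.61). With panobinostat alone 1 was higher and 2 lower, TFDP1 (-0.95, limma adjusted p = 0.019) and EHMT2 (-0.73, adjusted p = 0.00403). That TFDP1 call was kept in 3 of 6 fits that left out an array. Valproic acid alone had 1 higher and 0 lower. Of all genes 7.39% and 7.47% were called with these single agents. The genes named here were picked for mention after their values were seen. With the valproic acid combination 3 were higher and 1 was lower, where 8.9% of all genes were higher and 8.06% lower. Centring changed the split with the panobinostat combination to 1 higher and 12 lower, where 22.3% of all genes were then lower. The split with the valproic acid combination became 1 higher and 7 lower, where 17.8% of all genes were lower. Of all genes 2.57% were called higher with decitabine and 3.96% in either direction. Of 11 measured genes of the DNA methylation machinery, DNMT3B, a de novo methyltransferase, was the 1 called with decitabine. It read 6.70, 6.93 and 7.36 in control and 8.01, 7.78 and 7.67 with decitabine, a rise of 0.82 (limma adjusted p = 0.0207), and it rose by 1.23 and 1.40 with the combinations. The decitabine call for DNMT3B was kept in 3 of 6 fits that left out an array, with an adjusted p of 0.109 without control replicate 1. Each combination had 1 gene of this list higher and 1 lower. The shares of all genes higher and lower were 11.2% and 12% with panobinostat, and 8.9% and 8.06% with valproic acid. After centring the list had 1 higher and 3 lower, and 1 and 1. Of all genes 22.3% and 17.8% were then lower. Of 13 measured genes of the intercellular bridge and of abscission, where TEX14 acts, 0 were called by limma with decitabine and 1 had an unadjusted p under 0.05. With the panobinostat combination 2 were higher and 2 lower, where 11.2% of all genes were higher and 12% lower. With the valproic acid combination 1 was higher and 0 lower, where 8.9% of all genes were higher and 8.06% lower. After centring these were 0 and 5, and 0 and 4. Of all genes 22.3% and 17.8% were then lower with these combinations.

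The protein-coding genes whose levels followed the 6 most closely were ranked by Pearson correlation over the 18 arrays with the mean of the 6 centred and scaled profiles. All arrays share the split into those with and without decitabine, so such values describe that split and carry no test. The first 10 ran from 0.989 to 0.969 and were TM4SF1, NRN1, DCAF4L1, NRIP3, SV2A, REDIC1, PRAC1, MTMR11, TKTL1 and PEG10. Each of these 10 had all 9 decitabine arrays above all 9 others. TM4SF1 went from a mean of 3.55 in control to 5.95 with decitabine, 6.35 with the panobinostat combination and 6.68 with the valproic acid combination. DCAF4L1 went from 4.07 to 7.74, 8.71 and 8.41, and TKTL1 from 3.32 to 7.09, 9.34 and 8.14.

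Taken gene by gene, the closest profiles differed between members. TM4SF1 (0.988) and DCAF4L1 (0.984) were nearest to MAEL, and DCAF4L1 (0.986) and PNLDC1 (0.982) to GCNA. DCAF4L1 and TM4SF1 (both 0.981) were also nearest to DAZL. For HORMAD1 the nearest was PNLDC1 (0.987), then ANGPT2 (0.975), both with a higher mean under decitabine alone than in the combinations, as in HORMAD1. For TEX14 they were HSPA2 (0.955) and CLDN10 (0.949), and for DPPA3 NPPC (0.969) and CXCL11 (0.968). NPPC and CXCL11 shared with DPPA3 a small decitabine difference, 0.98 and 0.80, beside combination differences of 2.63 and 2.58 for NPPC and 3.68 and 2.99 for CXCL11.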

How the data were processed

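Total RNA of 18 U937 samples was hybridised to 18 arrays, 3 per group. The authors made the deposited log2 signals with RMA (background correction, quantile normalisation and probe set summary), as the submitters' processing notes name it; its version is not given in the sources used here. Quantile normalisation gives arrays like distributions and can hide a shift of all genes. The table held 48226 probe sets, of which 16098 had 1 symbol in the platform annotation, 0 several and 32128 none. The brightest probe set over all arrays stood for each of 779 genes with more than 1, which left 14884 genes. A mean per group was fitted to all 18 arrays with limma 3.58.1 in R 4.3.3 and tested on simulated data, with Benjamini-Hochberg adjustment over all genes in each of 11 comparisons.

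The 6 genes and the lists were chosen with earlier results of these data known. Named beside the 6 were called genes of the 3 germ cell lists (at most 8 per list, largest change first), called repressor and DNA methylation genes with decitabine (at most 5 each), and the 10 closest profiles, plus 2 per member. The repressor genes named with an inhibitor alone or with a combination fall outside this rule. Alternatives were a replicate block, array centring, mean probe sets, a low-level filter, a mean-dependent prior, only the groups compared, and each array left out. The number of arrays limits precision. Same-numbered arrays of different groups correlated between -0.108 and 0.104, so numbers were not taken as pairs. Promoters came from RefSeq, GRCh38.p14.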

Additional observations from a re-analysis of the deposited data

Results flagged for a closer look

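OOEP, a gene of the oocyte's subcortical maternal complex, was the 1 of 95 other germ cell genes whose response to decitabine differed with and without panobinostat, by an interaction of 0.93 on the log2 scale (limma adjusted p = 0.0287). Its mean log2 level was 3.59 in control, 3.26 with decitabine, 3.21 with panobinostat and 3.81 with both. All these levels lie near the array median of 3.84, and the call was kept in 4 of 12 fits that left out an array. OOEP was not tested once low-level genes were left out, and it was not called when only the 4 groups concerned were fitted.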

How the results depend on the processing

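Of the 66 differences of the 6 germ cell genes, 8 changed sign with 1 array left out and 4 on centring, all of them at most 0.18 in size. No other difference among the 66 changed sign in these fits. Centring moved the MAEL and TEX14 differences with decitabine plus valproic acid to 4.32 and 1.76. With a replicate block, 3 in place of 6 of the 95 other germ cell genes were called with panobinostat, and 10 in place of 9 with decitabine. Same-numbered arrays correlated best with their own number in 19 of 45 pairs, and numbers were not taken as pairs. The labels do not say whether same-numbered samples were handled together, and these correlations cannot settle it. With only the compared groups fitted, counts were 2 for panobinostat, 4 and 0 for the panobinostat and valproic acid combinations against decitabine (14 of the latter at an unadjusted p under 0.05), 5 for the valproic acid combination against valproic acid, and 0 for the panobinostat interaction (10 unadjusted). With low-level genes left out, 33 list genes stayed, the last 2 counts being 5 and 0 (5 unadjusted). With 1 array left out, counts ranged from 3 to 7 for decitabine, 2 to 5 for panobinostat, 1 to 4 for valproic acid, 12 to 14 for the panobinostat combination and 12 to 16 for the valproic acid combination. Against decitabine they ranged from 5 to 11 and 0 to 4, against the inhibitor from 9 to 13 and 5 to 8, and for the interactions from 0 to 1 and 0 to 0. The cause of these changes was not tested. Signals near the array median limit what can be seen of genes that are silent in control.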
